A study of Mus musculus with 12 samples.

Results

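The activity-dependent immediate early genes followed here are 10 genes chosen by name: Arc, Bdnf, Fos, Fosb, Junb, Egr1, Egr3, Nr4a1, Npas4 and Dusp1. Each symbol matched exactly 1 of the 41388 gene identifiers in the count files, and all 10 passed the filter on low counts that left 13364 genes to test. The mice were C57/Bl6, at postnatal day 21, and their cortex and hippocampus were taken. They carried the transgene Aldh1L1::RPL10a-eGFP, in which an astrocyte promoter drives a ribosomal protein with a fluorescent tag, and an antibody to that tag retrieves ribosomes together with their messages (TRAP, translating ribosome affinity purification). There are 12 libraries, 3 in each of 4 groups: PAP TRAP (immunoprecipitate of a synaptoneurosome fraction, PAP standing for peripheral astrocyte process), cortex TRAP (immunoprecipitate of the whole tissue), synaptoneurosome input and cortex input. A synaptoneurosome fraction is a gradient layer that holds pinched-off synapses with the fine processes around them. All 4 groups share the tag, the age, cycloheximide at 1 ug/mL, which stalls ribosomes on their messages, and TTX at 1 mM, which blocks voltage-gated sodium channels. The labels call the cell type astrocytes for every library, inputs included, so what is not astrocyte RNA is not set apart by them. The labels do not say whether the libraries of a group came from separate animals, so p-values measure only the spread between these libraries, which may be technical.

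Immediate early genes are transcribed within minutes of synaptic activity, from transcription factors that are already in place and need no new protein. Most encode transcription factors, whose messages are translated in the cell body so that the protein can return to the nucleus. Arc is the known exception in neurons: its message travels into dendrites and is translated near active synapses, where the protein promotes the internalisation of AMPA receptors. The comparison made here sets Arc beside the transcription factor messages in each kind of library.

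Gene counts ran from 4918113 to 17553985 per library, and counts of nuclear genes from 1423296 to 7777763, with the synaptoneurosome inputs lowest at 1423296 to 2476076. Mitochondrial transcripts took 1.03% to 91.9% of the gene counts. Levels are given as normalized CPM, which is a count relative to the total of its library after trimmed-mean (TMM) scaling, or as raw counts. Astrocyte markers made up 4.85% to 9.51% of nuclear counts in PAP TRAP and 6.98% to 10.2% in cortex TRAP, against 4.04% to 4.87% in synaptoneurosome input and 0.806% to 0.891% in cortex input. Neuron markers made up 0.464% to 0.685% in PAP TRAP and 0.206% to 0.315% in cortex TRAP, against 1.17% to 1.62% in synaptoneurosome input and 1.85% to 2.03% in cortex input. In each list 1 gene weighed heavily in these sums, so they do not stand for every marker. In PAP TRAP Slc1a2 had 230386 to 480860 counts, beside 18074 to 41679 for Glul. Snap25 had 63088 to 85317 counts in cortex input, beside 10039 to 12773 for Syt1. In PAP TRAP these were 8287 to 13417 and 7752 to 11244. Both marker lists hold 12 genes, and none of those genes was at 0 in any group, so counts of every neuron marker were present in all 4 groups, both immunoprecipitates included. In such bulk samples, fewer cells of a type and less RNA per cell cannot be told apart.

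The members differ in the sequence that follows the stop codon. In the GENCODE M21 annotation (GRCm38), Arc (ENSMUSG00000022602) lies at chr15:74669083-74672570 on the minus strand, and its longest coding transcript has 3 exons, 1191 coding bases and 1668 bases of 3′ UTR. That 3′ UTR holds 2 exon junctions. None of the other 9 members has a junction after the stop codon, and at least 2 are found in 19 of 12432 tested genes with a coding transcript, which is 0.153%. A junction downstream of the stop is known to expose a message to nonsense-mediated decay once it is translated, and Arc is known for this from rat neurons. The motif ATTTA, the core of AU-rich elements that shorten the life of many messages, occurs in the 3′ UTR of 9 members and not in that of Arc. Among 1059 tested genes with a 3′ UTR of 1500 to 1900 bases, 13.4% also have none. Per kilobase of 3′ UTR the 9 members had 0.466 to 5.80 copies, and 8 of them lay above the median of the tested genes, 1.30. The 30-base stretches below come from the 3′ UTRs of 4 members and show the motif, which the 3′ UTR of Arc lacks. Capitals mark ATTTA, and overlapping copies are counted separately.
Fos: tattgtgttttcaATTTATTTAttaagatg
Dusp1: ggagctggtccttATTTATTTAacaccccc
Nr4a1: gATTTAtatttgtgtattttcctggATTTA
Junb: ataatatatttgtgtATTTAacagggaggg

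Upstream of the start site, 7 members have an entry in the RefSeq promoter table (GRCm38.p6): Bdnf, Fos, Fosb, Junb, Nr4a1, Npas4 and Dusp1. All 7 hold TGACG, the core of the cyclic AMP response element that the activity-regulated factor CREB binds, on either strand within 250 bases before a start site. The same holds for 19.8% of all 27025 genes listed and for 17.8% of all windows. Bdnf holds it at 1 of its 7 listed start sites. The full palindrome TGACGTCA, whose every match is also counted as TGACG, was found in 1 member, Dusp1, and in 1.77% of genes. The CArG box, the site of serum response factor, was found in none of the 7 and in 1.62% of genes. It was searched only in its strict spelling (CC, a run of A or T, GG) and within the same 250 bases. Sites farther upstream were not searched, and Arc, Egr1 and Egr3 have no entry in the promoter table. The stretches below are the 80 bases of 3 members that hold TGACG (capitals, CGTCA on the other strand). They are shown because the same letters stand before members with different orders of group means: Fos, lowest in PAP TRAP, Nr4a1, lowest in cortex TRAP, and Dusp1, highest in cortex TRAP. A match describes the letters and says nothing of binding.
Fos, chr12:85473754-85473833, plus strand: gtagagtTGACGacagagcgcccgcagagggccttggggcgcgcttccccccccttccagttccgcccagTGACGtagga
Nr4a1, chr15:101266613-101266692, plus strand: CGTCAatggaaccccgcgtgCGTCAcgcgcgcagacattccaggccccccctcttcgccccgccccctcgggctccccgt
Dusp1, chr17:26508592-26508671, minus strand: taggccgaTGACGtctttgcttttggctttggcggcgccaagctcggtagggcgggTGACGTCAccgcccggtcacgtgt

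Arc was highest in PAP TRAP and lowest in cortex TRAP. Its level was 121, 266 and 139 normalized CPM in the PAP TRAP libraries and 7.36, 19.5 and 11.998 in the cortex TRAP libraries. In the synaptoneurosome inputs it was 41.2, 70.7 and 57.6, and in the cortex inputs 29.8, 55.2 and 40.2. Every PAP TRAP library lay above every library of the other 3 groups, every cortex TRAP library lay below every input library, and both inputs overlapped. The raw counts were 1383, 3224 and 1794 in PAP TRAP, 130, 235 and 201 in cortex TRAP, 136, 237 and 299 in the synaptoneurosome input, and 538, 832 and 659 in cortex input. The mean was 175.5 ± 79.0 normalized CPM in PAP TRAP, 12.9 ± 6.11 in cortex TRAP, 56.5 ± 14.7 in the synaptoneurosome input and 41.7 ± 12.8 in cortex input (SD, n = 3 each). The order of the means was PAP TRAP, synaptoneurosome input, cortex input and cortex TRAP, and the neighbours that did not differ beyond their spread were both inputs.

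**Figure D1:**
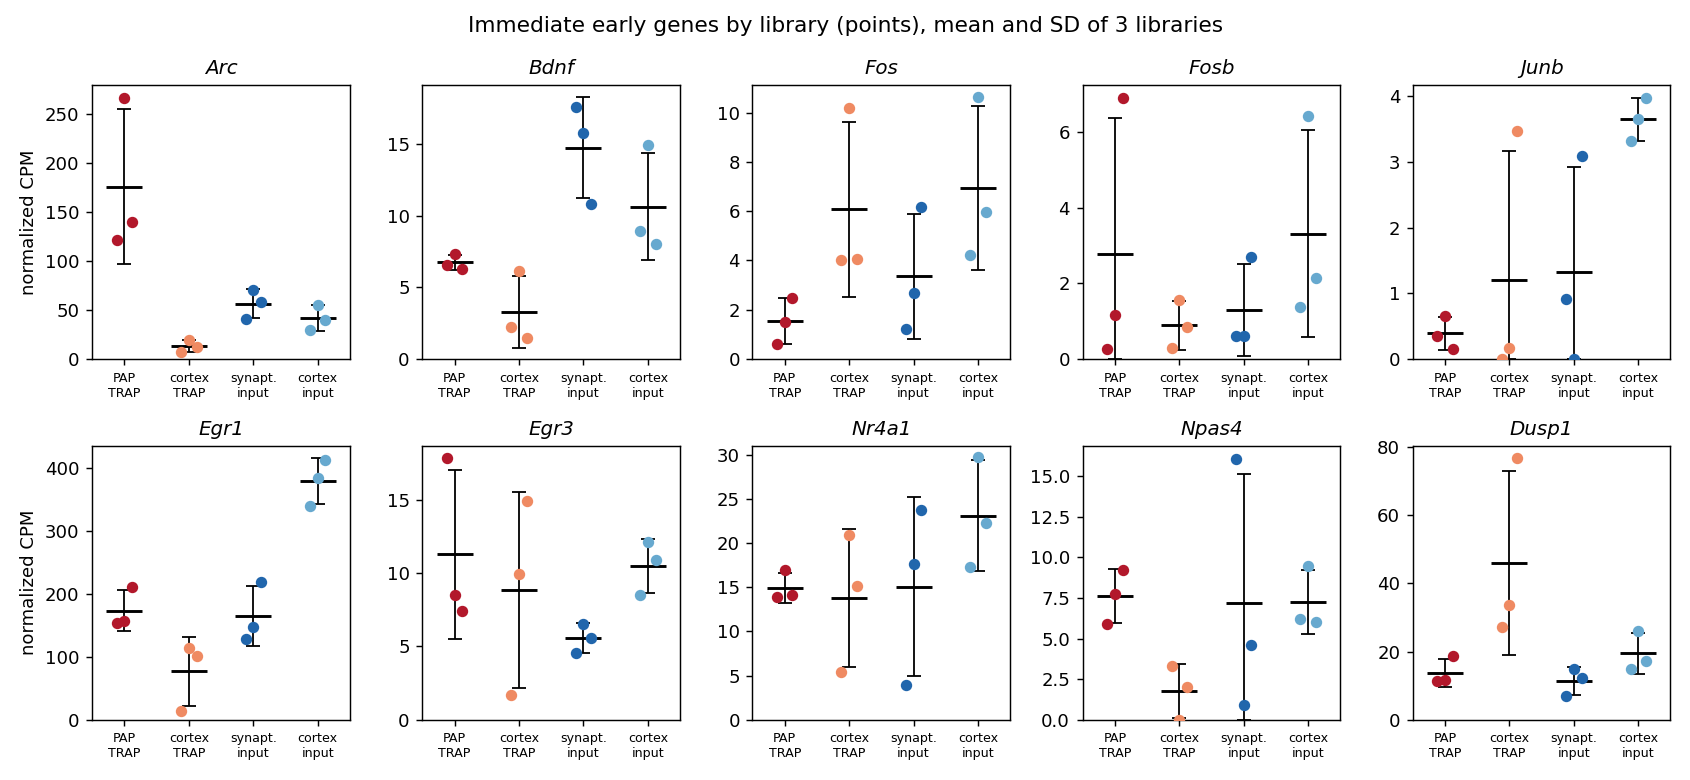
Normalized CPM (linear axes from 0) of the 10 members in each of the 12 libraries (points), with the mean (wide line) and SD (bars, cut at 0) of 3 libraries per group; "synapt. input" is the synaptoneurosome input. Arc lies between 121 and 266 in PAP TRAP, above all other libraries, while Egr1 is highest in cortex input at 339.9 to 411.9 and Dusp1 in cortex TRAP at 27.1 to 76.8.

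PAP TRAP against synaptoneurosome input compares the pull-down with its own starting fraction. All adjusted p-values come from edgeR's quasi-likelihood test, fitted over all 12 libraries and adjusted by Benjamini-Hochberg over all 13364 genes, and a gene is called at an adjusted p under 0.05. Arc rose by 1.63 ± 0.38 on the log2 scale (SE; 3.11-fold, 95% interval 1.79 to 5.39; edgeR adjusted p = 0.0192). It was the 1 member called of 10, where 4.53% of all genes tested were called and 3.02% were called higher. No member was called lower, as were 1.52% of all genes. The other 9 members lay between -1.80 and 1.04, and the median of all 10 was 0.08 where that of all genes was 0.06. The libraries did not overlap for 2 members higher in PAP TRAP, Arc and Egr3, and 1 lower, Bdnf, against 12.2% and 9.38% of all genes, or 21.6% in either direction. That call was lost without synaptoneurosome input replicate 1 (1.46, edgeR adjusted p = 0.0932), without replicate 3 of that input (1.66, edgeR adjusted p = 0.0669), without PAP TRAP replicate 2 (1.21, edgeR adjusted p = 0.105) and with offsets corrected for GC content (1.30, edgeR adjusted p = 0.0766). PAP TRAP replicate 2, the library with most Arc, also had, of the 3 PAP TRAP libraries, the highest share of astrocyte markers at 9.51% and the lowest share of neuron markers at 0.464%, and their part in the result was not tested. Over all 6 libraries of this comparison, none of the 12 neuron markers was called higher and 2 were called lower, Snap25 at -1.42 and Syt1 at -1.12, with a median of -0.29. Of the 12 astrocyte markers 4 were called higher and none lower (median 0.80), among them Aldoc at 1.57 and Glul at 1.47. Of 12 oligodendrocyte and myelin genes 1 was called higher, Mbp at 1.75, and 3 lower, and 2 of 4 tested B-lineage genes were called higher. The part of these other cell types in the Arc result was not tested.

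PAP TRAP against cortex TRAP sets both immunoprecipitates side by side. Arc was 13.6-fold higher in PAP TRAP (95% interval 7.48 to 24.7), a log2 change of 3.77 ± 0.41 (edgeR adjusted p = 7.97e-07), and only 5.54% of all genes tested had a larger one. Of the 10 members 1 was called higher and 1 lower, where 33.9% of all genes were called, 19.3% higher and 14.6% lower. The libraries did not overlap for 4 members higher in PAP TRAP and 2 lower, against 22.2% and 26.1% of all genes, or 48.4% in either direction. The Arc change stayed between 3.34 and 4.31 when each library was left out in turn, always with a call. Neuron markers moved the same way in this comparison: 11 of 12 were called higher in PAP TRAP and none lower, with a median of 2.28 where the median of all genes was -0.28. So did 9 of 12 oligodendrocyte and myelin genes (median 2.84) and 7 of 12 microglia genes (median 2.86), with none called lower. Of 7 tested endothelial and mural genes 4 were called higher and 1 lower. Astrocyte markers were called lower in 10 of 12 cases and higher in none (median -1.31). The part of these cell types in the Arc result was not tested.

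Cortex TRAP against cortex input compares the pull-down of the whole tissue with its own input. Arc was 3.24-fold lower in cortex TRAP (95% interval 1.86 to 5.63), a log2 change of -1.69 ± 0.38 (edgeR adjusted p = 0.00166). Neuron markers were lower in 12 of 12 cases, with a median of -3.12, and astrocyte markers higher in 12 of 12, with a median of 3.97. Of 12 oligodendrocyte and myelin genes 10 were called lower (median -2.46) and of 12 microglia genes 6 (median -1.92), with none called higher. Of 7 tested endothelial and mural genes 2 were called lower and 1 higher. The part of these cell types in the Arc result was not tested. Of the 10 members 3 were called lower and 1 higher, where 35.5% of all genes were called, 19.5% lower and 15.9% higher. Arc, Bdnf and Egr1 fell and Dusp1 rose. The libraries did not overlap for 4 members lower in cortex TRAP, Arc, Bdnf, Egr1 and Npas4, and 1 higher, Dusp1, against 27.8% and 27.4% of all genes, or 55.2% in either direction.

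The change over input was higher in the synaptoneurosome fraction than in the whole tissue for Arc, by 3.33 ± 0.54 on the log2 scale (interaction term, edgeR adjusted p = 0.000186), and for Egr1, by 2.38 ± 0.65 (edgeR adjusted p = 0.0129). Egr1 was called higher in neither pull-down: against its own input it was at 0.07 in PAP TRAP and at -2.30 in cortex TRAP. No other member was called in this test of the difference, where 20.2% of all genes were called, 12.9% higher and 7.31% lower. Neuron markers were called higher in 11 of 12 cases in the same test, with a median of 2.87. Oligodendrocyte and myelin genes were called higher in 8 of 12 cases and lower in none (median 2.24), and microglia genes higher in 1 of 12 (median 0.09). Astrocyte markers were called lower in 12 of 12, with a median of -3.12.

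Against cortex input, Arc was 4.21-fold higher in PAP TRAP (95% interval 2.41 to 7.32; log2 change 2.07 ± 0.38; edgeR adjusted p = 0.000792). No other member was called higher or lower there, where 15.9% of all genes were called, 10.6% higher and 5.31% lower. The libraries did not overlap for 1 member higher in PAP TRAP, Arc, and 5 lower, Bdnf, Fos, Junb, Egr1 and Nr4a1, against 18.8% and 20.4% of all genes, or 39.2% in either direction. Between both inputs 0 members were called by edgeR and 0 by DESeq2, where edgeR called 9.32% of all genes, 7.26% higher in synaptoneurosome input and 2.07% lower. At an unadjusted p under 0.05 there was 1, Egr1, at -1.20 ± 0.46, and it was called in a fit without the filter on low counts and in a fit of both inputs alone. The libraries did not overlap for 4 members lower in synaptoneurosome input, Junb, Egr1, Egr3 and Dusp1, and 0 higher, against 20.1% and 16.4% of all genes, or 36.5% in either direction. The Arc difference between synaptoneurosome input and cortex input was 0.44 ± 0.37 (95% interval -0.34 to 1.22; edgeR adjusted p = 0.506).

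**Figure D2:**
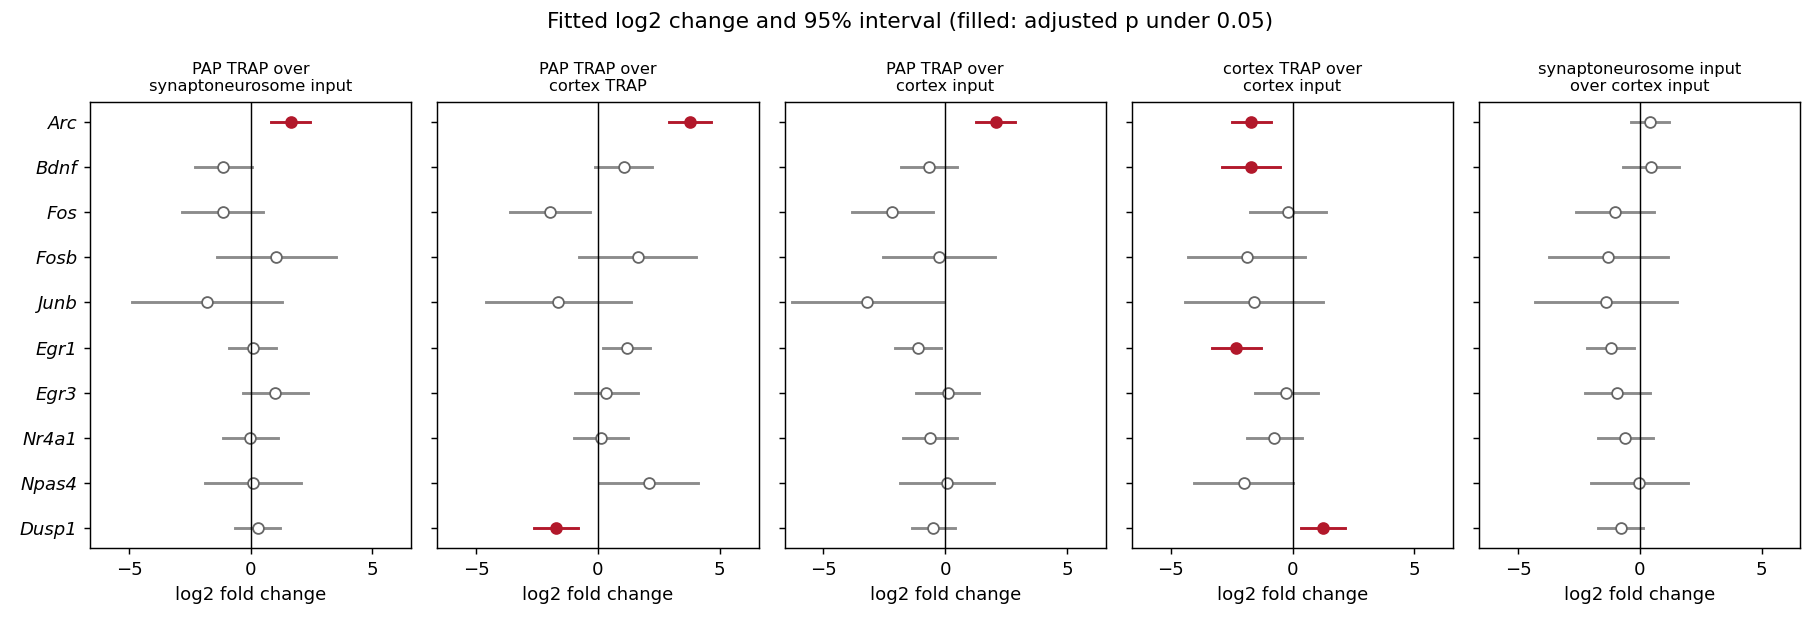
Fitted log2 fold change (x axis) with its 95% interval for the 10 members (rows) in 5 comparisons (panels); filled red points have an adjusted p under 0.05. Arc is filled in 4 of the 5 panels, at 1.63, 3.77, 2.07 and -1.69, and Junb and Fosb have wide intervals.

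Within a library, the ratio of Arc counts to those of another gene does not depend on scaling. The counts of Arc over the summed counts of the 7 transcription factor members were 0.632, 1.38 and 0.555 in PAP TRAP. They were 0.253, 0.124 and 0.0842 in cortex TRAP, 0.266, 0.401 and 0.218 in the synaptoneurosome input, and 0.0782, 0.121 and 0.0869 in cortex input. Every PAP TRAP ratio lay above all the others, the synaptoneurosome inputs lay above the cortex inputs, and cortex TRAP overlapped both inputs. Egr1 holds a large part of the summed counts. Without it the mean ratio was 4.62 ± 2.32 in PAP TRAP, 0.418 ± 0.108 in cortex TRAP, 1.75 ± 0.654 in the synaptoneurosome input and 0.760 ± 0.0292 in cortex input (SD, n = 3 each), and the 4 groups then did not overlap. Leaving Egr1 out was chosen after seeing the data. No test was made on this ratio, because it is a score over chosen genes.

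Taken one by one, the log2 ratio of Arc to each of the other 9 members was on average higher in PAP TRAP than in synaptoneurosome input for 9 of 9, by 0.68 for Egr3 up to 2.68 for Bdnf. The libraries did not overlap for 4 of them, Bdnf, Fos, Egr1 and Dusp1. PAP TRAP also stood above cortex input for 9 of 9, by 1.94 to 5.31, without overlap for 8, and above cortex TRAP for 9 of 9, by 0.26 to 5.80, without overlap for 7. A small constant was added to the counts so that a ratio exists where a gene has no count. The 0.26, of Npas4, rests on that constant, since Npas4 had no count in cortex TRAP replicate 2. The same holds for Junb, at 3.32 against cortex TRAP and 2.65 against synaptoneurosome input, with a library without counts in each. A gene that is high in a group gives such a sign against every other gene, so these shifts restate the Arc level. The counts of ratios without overlap have no share over all genes beside them, so they are not read as a result about the members. Arc made up 36.6%, 55.7% and 33.6% of the counts of the 10 members in PAP TRAP and 6.85%, 9.99% and 7.61% in cortex input. Per kilobase of exon, Arc was the most abundant member in PAP TRAP, at 57.4 normalized CPM per kb against 38.6 for Egr1, and Egr1 was the most abundant in the other 3 groups.

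**Figure D3:**
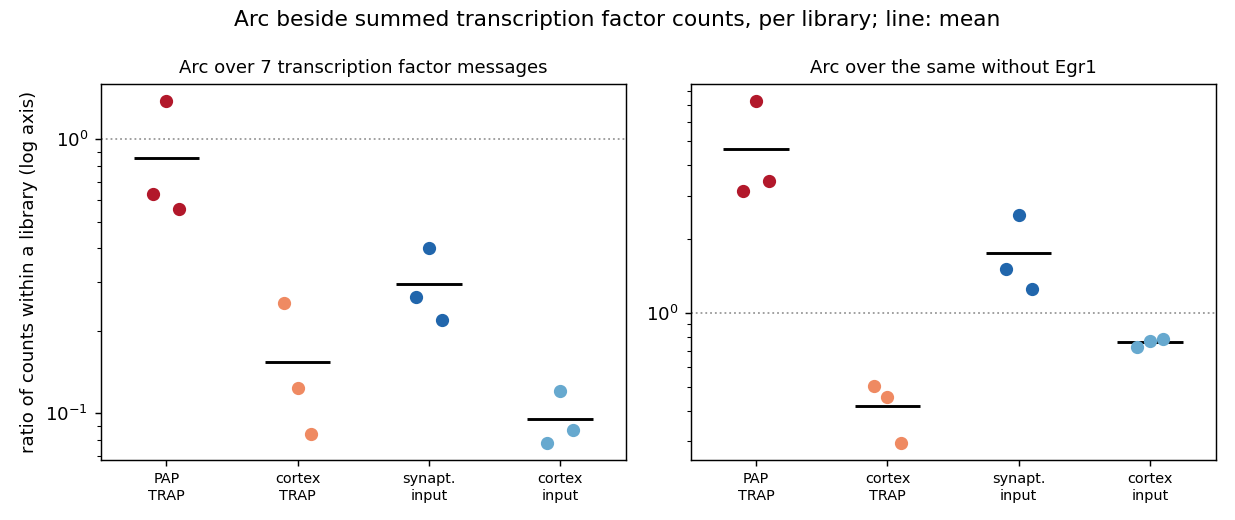
Ratio of Arc counts to the summed counts of the transcription factor members (log axis) in each library, with all 7 factors (left) and without Egr1 (right); lines are means of 3 libraries and the dotted line is a ratio of 1. On the left the PAP TRAP libraries lie between 0.555 and 1.38, above every other library.

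Egr1 (ENSMUSG00000038418), a zinc finger transcription factor, was highest in cortex input. Its level was 153, 156 and 210 normalized CPM in PAP TRAP, and 14.4, 114 and 102 in cortex TRAP. In synaptoneurosome input it was 128, 148 and 218, and in cortex input 340, 384 and 412. Every cortex input library lay above all the others and every cortex TRAP library below all the others, while PAP TRAP and synaptoneurosome input overlapped. Egr1 was 4.93-fold lower in cortex TRAP than in cortex input (log2 change -2.30 ± 0.47, edgeR adjusted p = 0.000746), a call that held without each library in turn. Cortex TRAP replicate 1, at 14.4, stood far below the other cortex TRAP libraries. Between PAP TRAP and its own input the Egr1 value was 0.07 ± 0.45 (95% interval -0.87 to 1.02; edgeR adjusted p = 0.956). Against cortex TRAP it was higher by 1.17 ± 0.46, which missed the threshold (edgeR adjusted p = 0.0544) but passed it without any 1 of the cortex TRAP libraries (0.81 to 1.69), under RLE scaling, without the low-count filter, without mitochondrial genes and in DESeq2. Against cortex input the PAP TRAP value was -1.13 ± 0.46 (edgeR adjusted p = 0.102), and it was called without the low-count filter, with GC correction and in a fit of those 2 groups.

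Egr3 (ENSMUSG00000033730; chr14:70077203-70082614, plus strand), of the same zinc finger family, had 17.9, 8.50 and 7.45 normalized CPM in PAP TRAP and 1.70, 9.94 and 14.9 in cortex TRAP. It had 4.55, 6.56 and 5.59 in synaptoneurosome input and 8.52, 12.2 and 10.9 in cortex input. PAP TRAP lay above synaptoneurosome input without overlap, and the fitted change was 1.02 ± 0.64 (edgeR adjusted p = 0.403). No comparison called Egr3. PAP TRAP replicate 1 was the highest of all 12 libraries, and cortex TRAP replicate 1 the lowest.

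Fos (ENSMUSG00000021250; chr12:85473890-85477273, plus strand), a subunit of the AP-1 dimer, had its lowest level in PAP TRAP. Its level was 0.614, 1.49 and 2.48 normalized CPM in PAP TRAP, from 7, 18 and 32 counts, and 4.02, 10.2 and 4.06 in cortex TRAP, from 71, 123 and 68. The synaptoneurosome inputs had 1.21, 2.68 and 6.17, from 4, 9 and 32 counts, and the cortex inputs 4.204, 10.6 and 5.98, from 76, 160 and 98. Every PAP TRAP library lay below every cortex TRAP and cortex input library, and the synaptoneurosome inputs overlapped all 3 other groups. The fitted changes of PAP TRAP, -1.98 ± 0.79 against cortex TRAP (edgeR adjusted p = 0.0573) and -2.17 ± 0.79 against cortex input (edgeR adjusted p = 0.0675), missed the threshold. Both were called by DESeq2, at -1.95 and -2.14, and the first was called without PAP TRAP replicate 3 at -2.51, the second in a fit of those groups alone at -2.17. Without cortex TRAP replicate 2 the first was -1.26 (edgeR adjusted p = 0.286). Fos in cortex TRAP against cortex input was -0.19 ± 0.74 (95% interval -1.75 to 1.37; edgeR adjusted p = 0.871).

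Fosb (ENSMUSG00000003545; chr7:19302696-19310051, minus strand), another AP-1 subunit, had 3, 14 and 89 counts in PAP TRAP and 5, 19 and 14 in cortex TRAP. It had 2, 2 and 14 counts in synaptoneurosome input and 25, 97 and 35 in cortex input. PAP TRAP replicate 3 stood far above the other PAP TRAP libraries, and in normalized CPM every pair of groups overlapped. No comparison called it. Against synaptoneurosome input the PAP TRAP value was 1.04 ± 1.17, and -0.90 without PAP TRAP replicate 3.

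Junb (ENSMUSG00000052837; chr8:84974484-84978718, minus strand), also an AP-1 subunit, had 4, 8 and 2 counts in PAP TRAP, 0, 2 and 58 in cortex TRAP, 3, 0 and 16 in the synaptoneurosome input and 60, 55 and 65 in cortex input. The cortex inputs were even, at 3.32 to 3.97 normalized CPM, and every PAP TRAP library lay below them at 0.155 to 0.660, as did every synaptoneurosome input. A count of 0 allows up to 3 counts, which is 0.170 normalized CPM in cortex TRAP replicate 1 and 0.894 in synaptoneurosome input replicate 2, and such limits cover counting error only. The fitted change of PAP TRAP against cortex input was -3.20 ± 1.48 (edgeR adjusted p = 0.152). Without cortex TRAP replicate 3, the library with 58 counts, Junb was called lower in cortex TRAP than in cortex input at -5.55 (edgeR adjusted p = 0.0199), against -1.58 with it. Exons of Junb overlap those of Prdx2 on the opposite strand, and no source used here gives the strand setting of the counting, so its counts are uncertain.

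Nr4a1 (ENSMUSG00000023034; chr15:101254269-101274795, plus strand), an orphan nuclear receptor, had the smallest span of group means among the 10. Its level was 13.9, 16.9 and 14.1 normalized CPM in PAP TRAP and 5.37, 20.9 and 15.2 in cortex TRAP. In synaptoneurosome input it was 3.94, 17.6 and 23.7, and in cortex input 17.3, 29.7 and 22.2. The highest group mean was 1.67 times the lowest, no comparison called it, and the one pair of groups that did not overlap was PAP TRAP below cortex input. PAP TRAP against synaptoneurosome input was -0.02 ± 0.54 (95% interval -1.16 to 1.11).

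Npas4 (ENSMUSG00000045903; chr19:4984355-4990316, minus strand), a transcription factor induced by calcium entry in neurons, had 5.87, 7.76 and 9.24 normalized CPM in PAP TRAP. It had 3.28, 0 and 2.03 in cortex TRAP, 16.1, 0.894 and 4.63 in the synaptoneurosome input and 6.20, 9.49 and 6.04 in cortex input. The 0 is no count in cortex TRAP replicate 2, which allows up to 0.248 normalized CPM. Every cortex TRAP library lay below every PAP TRAP and every cortex input library, while the synaptoneurosome inputs spanned nearly the whole range. PAP TRAP against cortex TRAP was 2.08 ± 0.97 (edgeR adjusted p = 0.105) and cortex TRAP against cortex input -2.01 ± 0.97 (edgeR adjusted p = 0.118). Both were called without the low-count filter, and the first also by DESeq2. Without cortex TRAP replicate 1 they were 2.97 and -2.91 (edgeR adjusted p = 0.0574 and 0.0564).

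Of the members that are not transcription factors, Bdnf (ENSMUSG00000048482; chr2:109674700-109727007, plus strand) encodes brain-derived neurotrophic factor, a secreted ligand of the receptor TrkB, and some of its messages are known to enter dendrites. It had 6.57, 7.35 and 6.29 normalized CPM in PAP TRAP and 2.21, 6.13 and 1.49 in cortex TRAP, against 17.6, 15.8 and 10.8 in synaptoneurosome input and 8.96, 14.9 and 7.999 in cortex input. Every PAP TRAP library lay below both inputs and above cortex TRAP. Bdnf was lower in cortex TRAP than in cortex input, at -1.71 ± 0.57 (edgeR adjusted p = 0.0241). That call was lost without cortex input replicate 2, cortex TRAP replicate 1 or cortex TRAP replicate 3 (edgeR adjusted p = 0.125, 0.0614 and 0.0645) and with GC- or length-corrected offsets (edgeR adjusted p = 0.055 and 0.0519), and the value was -2.66 without cortex TRAP replicate 2. PAP TRAP against synaptoneurosome input was -1.12 ± 0.56 (edgeR adjusted p = 0.273). Against cortex TRAP the PAP TRAP value was 1.05 ± 0.56 (edgeR adjusted p = 0.157), and it was called without cortex TRAP replicate 2 at 1.99 (edgeR adjusted p = 0.0172). The counts merge transcripts from all Bdnf start sites, so dendritic and somatic forms cannot be told apart, and an antisense gene overlaps its exons.

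Dusp1 (ENSMUSG00000024190; chr17:26505590-26562128, minus strand), a phosphatase that switches off MAP kinases, was highest in cortex TRAP. Its level was 11.4, 11.6 and 18.5 normalized CPM in PAP TRAP and 27.1, 33.7 and 76.8 in cortex TRAP. In synaptoneurosome input it was 6.97, 14.9 and 12.1, and in cortex input 14.9, 26.2 and 17.2. Every cortex TRAP library lay above every other library, PAP TRAP overlapped both inputs, and the lowest cortex input lay barely above the highest synaptoneurosome input. Dusp1 was 3.31-fold lower in PAP TRAP than in cortex TRAP (log2 change -1.73 ± 0.44, edgeR adjusted p = 0.0049), and -0.99 without cortex TRAP replicate 3 (edgeR adjusted p = 0.102). Cortex TRAP was higher than cortex input by 1.24 ± 0.43 (edgeR adjusted p = 0.0303). This call was lost without cortex input replicate 1 or 3 (edgeR adjusted p = 0.184 and 0.156), without cortex TRAP replicate 3 (0.49, edgeR adjusted p = 0.436) and with GC- or length-corrected offsets (edgeR adjusted p = 0.076 and 0.0987). Exons of Dusp1 overlap those of Ergic1 on the opposite strand, so its counts are uncertain in the same way as those of Junb.

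A list of 20 other messages known from dendrites, chiefly of neurons, was set beside Arc, and a list of 20 transcription factors of cortical neurons beside the transcription factor members. In PAP TRAP against synaptoneurosome input 11 of the 20 dendritic messages rose and 1 fell, with a median of 1.12 where the median of all genes was 0.06 and 3.02% of all genes were called higher and 1.52% lower. Dlgap3 and Shank3, postsynaptic scaffolds, rose by 2.32 ± 0.31 and 2.25 ± 0.31 (edgeR adjusted p = 0.000547 and 0.000586). Of the neuronal transcription factors 1 of 20 rose and none fell, with a median of 0.25. That one was Lhx2 (1.38 ± 0.33, edgeR adjusted p = 0.0208), which is also known from astrocytes and whose call was lost without any 1 synaptoneurosome input, without PAP TRAP replicate 2 (1.03, edgeR adjusted p = 0.0961) and with GC-corrected offsets (1.06, edgeR adjusted p = 0.0971). The dendritic messages above Arc in log2 change numbered 4 of 20 in this comparison and the neuronal transcription factors above it 0 of 20. Of all genes 9.83% lay above Arc. These numbers were 10 and 1 in PAP TRAP against cortex TRAP (5.54% of all genes) and 8 and 1 in PAP TRAP against cortex input (6.94%). They were 13 and 1 between both inputs (31.6%) and 7 and 8 in cortex TRAP against cortex input (81.0%). For the difference of enrichments they were 8 and 3 (8.04%). In the comparisons of PAP TRAP the numbers of transcription factors are not far from these shares and are not read as a result about them.

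In PAP TRAP against cortex TRAP, 18 of the 20 dendritic messages rose and none fell, with a median of 3.46, where 19.3% and 14.6% of all genes did. Shank2 and Shank1, scaffolds of the postsynaptic density, rose by 5.42 ± 0.31 and 5.35 ± 0.34 (edgeR adjusted p = 3.22e-10 and 1.02e-09). The neuronal transcription factors rose in 9 of 20 cases and fell in 3, with a median of 1.12. Tbr1, of deep-layer projection neurons, rose by 4.43 ± 0.30 (edgeR adjusted p = 2.01e-09), and Lhx2 fell by 1.97 (edgeR adjusted p = 0.000118). In cortex TRAP against cortex input, 17 of 20 dendritic messages fell and none rose (median -2.0), and 12 of 20 neuronal transcription factors fell and 2 rose (median -1.96), those being Lhx2 and Rorb, both also known from astrocytes. Of all genes 19.5% fell there and 15.9% rose. Between both inputs, 9 dendritic messages rose in the synaptoneurosome fraction and none fell (median 0.81), while no neuronal transcription factor rose and 3 fell (median -0.56). Of all genes 7.26% rose there and 2.07% fell. Against cortex input, PAP TRAP had 15 dendritic messages higher and 1 lower (median 1.48), and 3 neuronal transcription factors higher and 5 lower (median -0.47). Of all genes 10.6% were higher there and 5.31% lower.

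**Figure D4:**
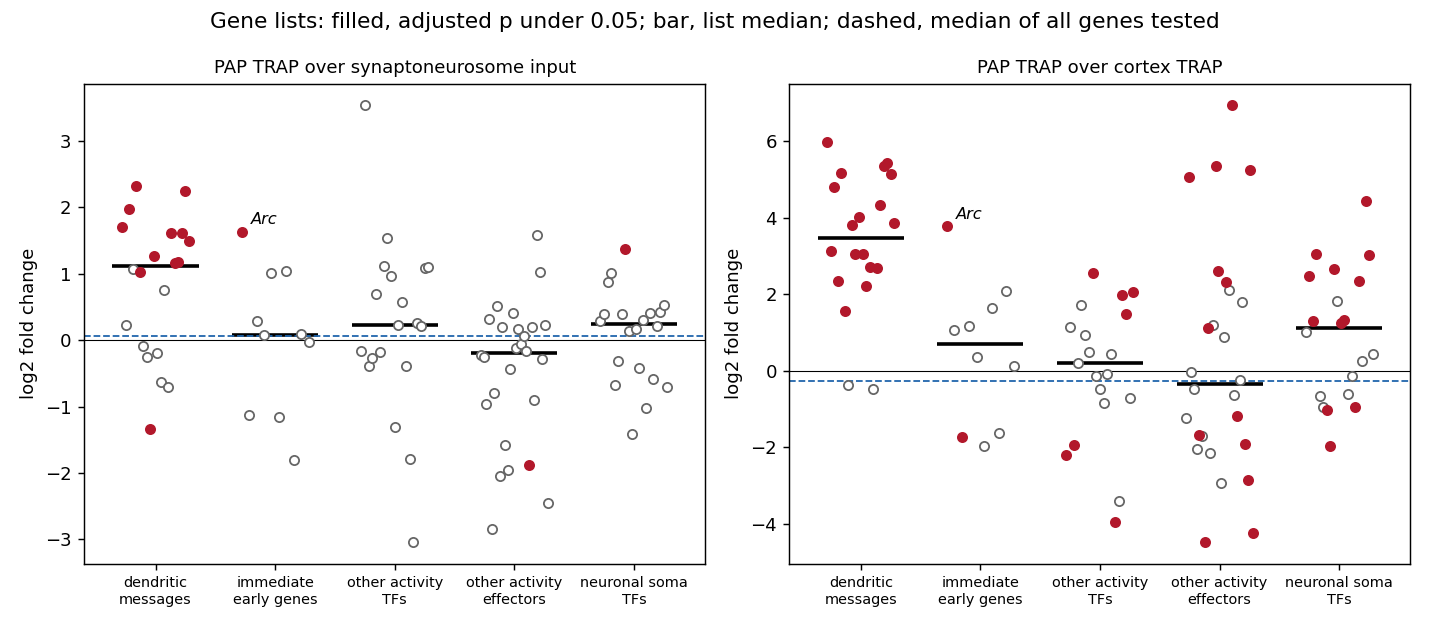
Log2 fold change of every tested gene in 5 lists (points, filled red where the adjusted p is under 0.05) for PAP TRAP over synaptoneurosome input (left) and PAP TRAP over cortex TRAP (right); bars are list medians, the dashed line is the median of all genes tested and TF stands for transcription factor. Arc, at 1.63 and 3.77, sits among the dendritic messages, whose medians are 1.12 and 3.46.

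Counts over the other activity-regulated genes are given beside the shares over all genes. Of 22 further activity-regulated transcription factors and nuclear regulators 19 were tested, and PAP TRAP against synaptoneurosome input called 0 of them by edgeR and 1 by DESeq2, with 5 at an unadjusted p under 0.05 in edgeR, where 4.53% of all genes were called. The gene called by DESeq2 was Btg2, an antiproliferative regulator, at 3.498 (DESeq2 adjusted p = 0.00707) and 3.54 ± 1.03 in edgeR (adjusted p = 0.0528); it is named after its values were seen. In PAP TRAP against cortex TRAP 4 of the 19 rose and 3 fell (median 0.20), near the shares of all genes, 19.3% and 14.6%. Nr4a2, a nuclear receptor close to Nr4a1, rose by 1.99 ± 0.42 (edgeR adjusted p = 0.00121; 2.81 without cortex TRAP replicate 2), and Bhlhe40, a repressor also tied to the circadian clock, fell by 2.21 (edgeR adjusted p = 0.00046). In cortex TRAP against cortex input 3 rose and 5 fell, where 15.9% of all genes rose and 19.5% fell. Among the 5 was Nr4a2, at -2.40 ± 0.42 (edgeR adjusted p = 0.00018; -3.23 without cortex TRAP replicate 2).

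Of 26 further activity-regulated effectors, PAP TRAP against synaptoneurosome input called 1 lower, Rgs2, a brake on G protein signalling (-1.88 ± 0.50, edgeR adjusted p = 0.0374), and none higher, where 1.52% and 3.02% of all genes were called. The Rgs2 call was lost without any 1 synaptoneurosome input, without PAP TRAP replicate 2 or 3, with GC-corrected offsets (edgeR adjusted p = 0.0751) and in those groups alone (edgeR adjusted p = 0.0616), and the value was -2.59 without PAP TRAP replicate 1. In PAP TRAP against cortex TRAP 7 of the 26 effectors rose and 6 fell, not far from the shares of all genes, 19.3% and 14.6%. Nptx1, a pentraxin that gathers AMPA receptors, rose by 5.36 ± 0.39 (edgeR adjusted p = 5.04e-09), and Vgf, a secreted neuropeptide precursor, by 5.25 ± 0.44 (edgeR adjusted p = 2.68e-08). Trib1, a pseudokinase, fell by 2.87 (edgeR adjusted p = 6.89e-06). Vgf was also higher in PAP TRAP than in cortex input, by 2.53 ± 0.38 (edgeR adjusted p = 0.000116), as was Arc. It was already higher in synaptoneurosome input than in cortex input, by 2.31 ± 0.38 (edgeR adjusted p = 0.000604). Against its own input its PAP TRAP value was 0.22 ± 0.36 (edgeR adjusted p = 0.795). For Arc the same 2 values were 0.44 and 1.63.

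Among 21 genes of the pathway that carries activity to the nucleus, PAP TRAP against synaptoneurosome input called 2 higher and none lower, where 3.02% and 1.52% of all genes were called. Crtc1, a CREB coactivator that moves from synapse to nucleus, rose by 2.04 ± 0.29 (edgeR adjusted p = 0.000659), a call that held without each library in turn, and Elk1, a partner of serum response factor, rose by 1.84 ± 0.50 (edgeR adjusted p = 0.043), a call lost without synaptoneurosome input replicate 2 or 3, without PAP TRAP replicate 1 or 2, under RLE scaling (edgeR adjusted p = 0.0528) and with GC-corrected offsets (edgeR adjusted p = 0.0552). In cortex TRAP against cortex input 13 of the 21 fell and 2 rose, where 19.5% and 15.9% of all genes did. Camk4, a nuclear calcium-dependent kinase of neurons, fell by 4.24 (edgeR adjusted p = 6.17e-09), and Ntrk2, which encodes the Bdnf receptor TrkB and is also abundant in astrocytes, rose by 3.28 ± 0.23 (edgeR adjusted p = 6.63e-09). PAP TRAP exceeded cortex input for Ntrk2 too, by 2.62 ± 0.23 (edgeR adjusted p = 2.59e-07). The value of its ligand Bdnf there was -0.66 ± 0.55 (95% interval -1.81 to 0.50; edgeR adjusted p = 0.468).

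Over the 4 group means, the genes whose pattern was nearest to that of Arc, among 4548 candidates whose mean log2 CPM was 4 or more, were Dbn1, Aatk, D430019H16Rik, Znrf1 and Plec. Their distances were 0.23, 0.27, 0.29, 0.31 and 0.34, each the Euclidean distance of mean log2 CPM centred on the gene's own mean. Dbn1 encodes drebrin, an actin-binding protein of dendritic spines, and Plec encodes plectin, a cytoskeletal linker. For Egr1 the nearest were Gucy1a2, A830018L16Rik and Zfp385b (0.08, 0.15 and 0.22), and for Dusp1 Txndc9, Dynlrb1 and Psma2 (0.07, 0.10 and 0.11). Nothing follows from such likeness over 4 points about shared control.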

How the data were processed

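RNA was measured in 12 libraries, grouped by their titles. The authors deposited raw counts, whole numbers of reads for each gene, as the values themselves show. The submitters' processing notes name Trimmomatic 0.32, Bowtie2, STAR and HTSeq without their roles. No source used here gives the genome build, annotation or strand setting. Per the labels' protocols, cDNA was amplified by SPIA, and no molecular identifiers are mentioned, so a count may not be an independent molecule. Entries that name no gene took 20.3% to 55.5% of a library and were dropped first.

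Symbols, positions, exon lengths and 3′ UTRs came from GENCODE M21 by identifier (40254 of 41388 matched), taking the longest coding transcript. Genes passing filterByExpr (minimum count 10, minimum total 15) were scaled by TMM, with factors of 0.191 to 2.46, and fitted with 1 mean per group (edgeR 4.0.16, limma 3.58.1, R 4.3.3). Mitochondrial genes stayed in. The procedure was tested on simulated data. Intervals are 95%, from the SE of the fit. Alternatives were RLE scaling, no low-count filter, DESeq2 1.42.0, compared groups alone, a replicate block, no mitochondrial genes, offsets corrected for GC content or length by loess (span 0.3), levels on nuclear counts without TMM, and each library left out.

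All 10 members are described. From each further list, up to 2 called genes per direction and comparison were eligible to be named, by smallest p. Members and lists were chosen with earlier results of these data known, so counts over lists are descriptions.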

Additional observations from a re-analysis of the deposited data

Results flagged for a closer look

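For 2 of the 10 members the enrichment over input differed between the synaptoneurosome fraction and the whole tissue by a test of the difference itself. That test called 20.2% of all genes, so the count of members is at the share of all genes. For Arc the difference was 3.33 ± 0.54 on the log2 scale (edgeR adjusted p = 0.000186): PAP TRAP lay above synaptoneurosome input by 1.63 and cortex TRAP was at -1.69 against cortex input. Without each library in turn it stayed between 2.91 and 3.89, with an edgeR adjusted p of at most 0.00134. For Egr1 the difference was 2.38 ± 0.65 (edgeR adjusted p = 0.0129): PAP TRAP was at 0.07 against synaptoneurosome input and cortex TRAP at -2.30 against cortex input. Without each library in turn it stayed between 2.03 and 2.91, with an edgeR adjusted p of at most 0.0456. Neuron markers were called in the same direction in 11 of 12 cases, oligodendrocyte and myelin genes in 8 of 12 and microglia genes in 1 of 12. The part of these cell types in either result was not tested.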

How the results depend on the processing

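Arc kept its direction and call in PAP TRAP against cortex TRAP, in cortex TRAP against cortex input, in PAP TRAP against cortex input and in the difference of enrichments under every alternative run, also with any 1 library left out. Its call against synaptoneurosome input was lost with GC-corrected offsets (1.30), and without 1 library at a time its change ran between 1.21 and 1.85, with 0 to 1 members called. With GC-corrected offsets 0 members were called there, where 296 of all genes were called higher and 125 lower, in place of 403 and 203. In cortex TRAP against cortex input 2 members were called with GC- or length-corrected offsets, in place of 4, the calls of Bdnf and Dusp1 being lost. Of all genes 2109 were called higher and 2570 lower with GC correction, and 2132 and 2265 with length correction, in place of 2127 and 2611. Between PAP TRAP and cortex TRAP the number of members called, 2, became 4 without the low-count filter, 5 by DESeq2 and 2 to 4 without 1 library at a time. Of all 13364 genes 2579 were called higher and 1949 lower there, and 2913 and 2340 by DESeq2. Without the filter these were 2650 and 1887 of 24438. Between PAP TRAP and cortex input the number of members called was 2 without the filter, with GC correction and by DESeq2, and 4 in those groups alone, in place of 1. Of all 13364 genes 1413 were called higher and 709 lower there, 1365 and 571 with GC correction and 1852 and 1061 by DESeq2. These were 1498 and 737 of 24438 without the filter and 1620 and 1054 of 12123 in those groups alone. Between both inputs the number of members called was 1 without the filter and in those groups alone, in place of 0. Of all 13364 genes 970 were called higher and 276 lower there. These were 1026 and 374 of 24438 without the filter and 1550 and 701 of 11649 in those groups alone. The ratio of Arc to the transcription factors without Egr1, added after seeing the data, averaged 4.62 for PAP TRAP, 0.418 for cortex TRAP, 1.75 for synaptoneurosome input and 0.760 for cortex input. The cause of these shifts was not tested.

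The labels do not say what a shared replicate number means, and the numbers were not taken to pair the libraries, since 6 of 18 same-numbered pairs, 5 of them of number 3, correlated above 0.1 after removing group means. Same-numbered pairs lay between -0.056 and 0.181, with a median of 0.072 beside -0.038 for other pairs, and 9 of 12 libraries correlated best with one of their own number, a hint from the data and not the design. With the replicate block, 4 members were called in PAP TRAP against cortex TRAP, Fos (-2.11, edgeR adjusted p = 0.0404) and Egr1 (1.38, edgeR adjusted p = 0.0146) beside Arc and Dusp1, and 2 in PAP TRAP against cortex input, Arc and Fos (-2.27, edgeR adjusted p = 0.0497), Nr4a1 in PAP TRAP against synaptoneurosome input was 0.23 and the Junb difference of enrichments was 2.01. Of all 13364 genes the blocked fit called 2577 higher and 1984 lower in PAP TRAP against cortex TRAP, and 1410 and 754 in PAP TRAP against cortex input.

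Signs turned for members without a call. With GC correction Egr1 was -0.21 and Npas4 -0.085 in PAP TRAP against synaptoneurosome input, Nr4a1 -0.0065 in PAP TRAP against cortex TRAP and Npas4 -0.15 in PAP TRAP against cortex input. Nr4a1 in PAP TRAP against synaptoneurosome input was 0.015 with length correction, 0.11 without mitochondrial genes and 0.0226 without the filter. Npas4 between both inputs was 0.0975 under RLE scaling, 0.10 by DESeq2, 0.0125 without mitochondrial genes, 0.0319 with length correction and 0.0594 in those groups alone. The Junb difference of enrichments was 0.26 with length correction. Without 1 library at a time, in PAP TRAP against synaptoneurosome input Fosb ran from -0.90 to 2.20, Egr1 from -0.085 to 0.345, Nr4a1 from -0.46 to 0.49 and Npas4 from -0.42 to 1.42. Between PAP TRAP and cortex TRAP Fosb ran from -0.32 to 2.42, Junb from -2.23 to 2.345, Egr3 from -0.14 to 1.10 and Nr4a1 from -0.14 to 0.67. Between PAP TRAP and cortex input Fosb ran from -2.21 to 0.66, Egr3 from -0.40 to 0.32 and Npas4 from -0.0895 to 0.31. In cortex TRAP against cortex input Fos ran from -0.92 to 0.25 and Egr3 from -1.01 to 0.11. Npas4 between both inputs ran from -1.33 to 0.51, and the Junb difference of enrichments from -0.83 to 3.77.

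Without mitochondrial genes the median of all genes moved by over 0.1, to 0.17 in PAP TRAP against synaptoneurosome input, in place of 0.06, with 573 genes called higher and 151 lower in place of 403 and 203. By DESeq2 these were 673 and 556. That median was -0.11 between PAP TRAP and cortex TRAP in place of -0.28, 0.10 between PAP TRAP and cortex input in place of -0.04, and 0.14 for the difference of enrichments in place of 0.03. Between both inputs 970 genes were called higher in the synaptoneurosome fraction and 276 lower, against 1522 and 494 by DESeq2 and 1550 and 701 in those groups alone. Few counts in the synaptoneurosome inputs limit what can be seen of Fos, Fosb, Junb and Npas4.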

Other observations

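Within the cortex inputs, replicate 2 had the highest level of 8 of the 10 members and of 11 of the 19 other activity-regulated transcription factors tested, where it was the highest of the 3 libraries for 30.4% of all genes tested. Over the mean of replicates 1 and 3 its level was 3.66 times for Fosb, 2.09 times for Fos, 1.76 times for Bdnf, 1.63 times for Dusp1 and 1.58 times for Arc. For Egr1 it was 1.02 times and for Junb 1.00 times. Other libraries led their groups too. Within its own group, cortex TRAP replicate 2 was highest for 6 of the 10 members and 8 of the 19 transcription factors (32% of all genes), and synaptoneurosome input replicate 3 for 5 and 11 (36.8% of all genes).

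Within PAP TRAP, replicate 3 had 89 counts of Fosb beside 3 and 14 in the other libraries, while for Junb it had 2 beside 4 and 8. Within cortex TRAP, replicate 3 had 58 counts of Junb beside 0 and 2, and replicate 1 had 254 counts of Egr1 beside 1379 and 1709, although replicate 1 had most nuclear counts of the 3.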
